A study of Mus musculus with 56 samples.

Results

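The complement genes described here are 9 genes listed by symbol and chosen with earlier results of these data known. These are the 3 chains of C1q (C1qa, C1qb, C1qc) and the components C2, C3 and C4b. The others are the anaphylatoxin receptors C3ar1 and C5ar1 and the C1 inhibitor Serping1. All 9 are among the 43629 genes in the count files and passed the filter on low counts that left 18838 genes for testing. Their RNA was followed in 56 libraries of 12 groups, made from mice at 9 weeks, before motor symptoms, and at 14 weeks, early in the symptomatic phase. From each lysate the study purified ribosome-bound mRNA of motor neurons by translating ribosome affinity purification (MN-TRAP, 25 libraries) and kept a portion of whole spinal cord RNA as input (31 libraries, called cord here). All mice carried the Chat bacTRAP transgene (line DW167 DW167Htz/J), which puts an EGFP-tagged ribosomal protein, EGFP-L10a, into Chat-expressing cells. Mice with this transgene alone form the Chat bacTRAP group, called wild type in the sample titles. The A315T group also carried the mutant human TDP-43 transgene (line 95Balo/J), the disease model of the study. The hTDP43WT group carried wild-type human TDP-43 (line 3cPtrc/J) and serves as an overexpression control without symptoms. The TDP-43 transgenes are driven by the prion protein promoter, which is active well beyond motor neurons, and each comes from 1 line, so line and genotype cannot be told apart. In cord there were 5 A315T, 6 hTDP43WT and 6 Chat bacTRAP libraries at 9 weeks and 4, 5 and 5 at 14 weeks. In MN-TRAP there were 5, 3 and 4 at 9 weeks and 4, 5 and 4 at 14 weeks. The labels name the tissue as cervical cord and do not say whether replicates are separate animals, so each p measures the spread between these samples.

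Complement is a protein cascade of innate immunity. In the classical pathway, C1q, assembled from its A, B and C chains, recognises a surface and activates its proteases, which cleave C4 and C2 into a convertase for C3. Cleaved C3 tags the surface, and its small fragment C3a is read by the receptor C3ar1, as C5a is by C5ar1. Serping1 encodes the inhibitor of the C1 proteases. In the central nervous system C1q is made mainly by microglia, the resident macrophages, C4b is made by astrocytes and oligodendrocytes among other cells, and complement is known for marking synapses that microglia remove. In bulk RNA of this kind, fewer cells of a type and less RNA per cell cannot be told apart.

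The libraries bear on these genes in a few ways. Library depth ran from 0.472 M (mega) to 255.8 M counts in MN-TRAP (median 19.6 M, with 3 libraries under 3 M) and from 17.5 M to 86.7 M in cord (median 40.4 M). The motor neuron markers (Chat, Mnx1, Isl1, Slc18a3, Slc5a7, Prph) were called higher in MN-TRAP than in cord for 6 of 6 genes in each genotype, so the labelled cell type was borne out by its markers. The 10 microglial markers were still read in MN-TRAP, and their mean log2 CPM (counts scaled to library size) ran from -0.30 to 3.77 over the 25 libraries. Lamr1-ps1, a processed pseudogene, was at 0.480 to 2.93 CPM in all 18 A315T libraries, at 1.11 to 1.69 CPM in 3 control MN-TRAP libraries (hTDP43WT replicate 5 at 14 weeks, hTDP43WT replicate 3 and Chat bacTRAP replicate 4 at 9 weeks) and at or under 0.0398 CPM in the other 35 controls. The Y-linked Ddx3y reached 51.0 CPM in Chat bacTRAP MN-TRAP replicate 4 at 14 weeks, against 0.828 CPM or less elsewhere, although the study used female mice. The labels were kept, and the counts below were repeated without these libraries.

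All 9 genes lie on the minus strand (GRCm38). C1qa (chr4:136895917-136898803), C1qc (chr4:136889804-136893065) and C1qb (chr4:136880129-136886187) sit side by side. C4b (chr17:34728380-34743882) and C2 (chr17:34862604-34898265) are close neighbours, and C3 (chr17:57203970-57228136) is on the same chromosome. C3ar1 is at chr6:122847138-122856161, C5ar1 at chr7:16246743-16259540 and Serping1 at chr2:84765387-84775444. C4b shares 34.6% of its 50-base exonic windows with its near copy C4a, so reads could be split between them, although C4a received 194 counts in all 56 libraries against 68474 for C4b. C2 shares 1656 of its 3872 exonic bases with Gm20547 on the same strand, which had 0 counts, and 161 with Zbtb12 on the opposite strand, which had 12308. By default featureCounts leaves out a read that falls on exons of more than 1 gene, and it used no strand here, so the 1574 counts of C2 may be too low.

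RefSeq promoters on GRCm38.p6 (250 bases before to 50 after the annotated start, 300 bases) were held for 5 of the 9 genes. Those of C1qb, C1qc and C3 are shown because C1q, a product of myeloid cells, and C3 carry much of what follows. They were searched on both strands for GAGGAA, a core element of the myeloid factor PU.1, for TTGCNNAA, a C/EBP-like element, and for TATAAA, the TATA box. Capitals mark the matches found, and all 3 sequences run 5′ to 3′ on the minus strand.
C1qb (chr4:136886151-136886450): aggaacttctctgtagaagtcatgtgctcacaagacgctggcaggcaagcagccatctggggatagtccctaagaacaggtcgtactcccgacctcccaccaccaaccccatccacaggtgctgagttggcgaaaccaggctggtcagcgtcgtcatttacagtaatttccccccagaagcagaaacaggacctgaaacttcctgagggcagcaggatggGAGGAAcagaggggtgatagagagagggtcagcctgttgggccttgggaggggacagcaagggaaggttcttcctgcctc
C1qc (chr4:136892865-136893164): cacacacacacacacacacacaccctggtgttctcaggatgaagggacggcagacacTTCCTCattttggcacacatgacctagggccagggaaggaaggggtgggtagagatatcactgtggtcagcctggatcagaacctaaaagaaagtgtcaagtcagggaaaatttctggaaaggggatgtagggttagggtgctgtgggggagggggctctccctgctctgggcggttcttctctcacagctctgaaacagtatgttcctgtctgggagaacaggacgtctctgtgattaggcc
C3 (chr17:57228087-57228386): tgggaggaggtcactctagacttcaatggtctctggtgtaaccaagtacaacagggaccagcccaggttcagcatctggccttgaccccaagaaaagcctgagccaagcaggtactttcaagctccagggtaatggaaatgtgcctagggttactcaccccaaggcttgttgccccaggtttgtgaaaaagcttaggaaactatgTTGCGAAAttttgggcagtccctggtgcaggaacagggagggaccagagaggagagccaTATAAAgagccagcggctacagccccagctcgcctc
C1qb held GAGGAA starting 30 bases before the start, and C1qc held it on the opposite strand, read here as TTCCTC, starting 193 bases before. This element occurs in 28.3% of 32851 promoters of the same length. C3 held no GAGGAA but TTGCNNAA starting 45 bases before the start (10.8% of promoters) and TATAAA starting 14 bases after it (13.6%). None of the motifs overlapped another, and a match is a description of the letters only.

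In cord, C1q, C3 and C4b were abundant and the receptors scarce. Normalized counts are the reads of a gene divided by the size factor of its library. Per kilobase of exon, the mean over the 31 cord libraries was 1145 normalized counts for C1qa, 1103 for C1qb and 483 for C1qc, followed by Serping1 at 213, C4b at 199 and C3 at 159. C3ar1 was at 16.5, C5ar1 at 13.1 and C2 at 6.69 on this scale. Every member was read in every cord library, the lowest value being 3.95 normalized counts of C5ar1 in hTDP43WT replicate 5 at 14 weeks. In MN-TRAP, C3ar1 was at 0 in 10 of 25 libraries, C2 and C5ar1 in 7 and C1qa in 1.

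The first comparison asked whether the mutant differed from each control in whole cord. C4b, the mouse gene of complement component C4, was higher in all 9 A315T cord libraries than in any control library of the same age. At 9 weeks it read 1690.4, 2363.5, 1173.3, 1641.5 and 1416.1 normalized counts in the 5 A315T libraries. The 6 Chat bacTRAP libraries ran from 447 to 991 (median 673) and the 6 hTDP43WT libraries from 551 to 970.3 (median 711). At 14 weeks A315T read 2463.8, 2417.4, 1978.6 and 2918, Chat bacTRAP 1033.5, 1356.6, 929, 814 and 802, and hTDP43WT 624.6, 557, 1081.7, 716 and 612. The lowest A315T library thus lay above the highest control at both ages, and no other member did so in all 4 comparisons. The means were 1657 ± 445 (SD, n = 5) against 694 ± 219 in Chat bacTRAP and 738 ± 178 in hTDP43WT (n = 6 each) at 9 weeks, folds of 2.39 and 2.24 (two-sided exact permutation p = 0.00216 each). At 14 weeks they were 2444.5 ± 384 (n = 4) against 987 ± 227 and 718 ± 211 (n = 5 each), folds of 2.48 and 3.40 (exact permutation p = 0.00794 each). These are the smallest p the group sizes allow, and they are 4 of 54 such tests, reported without adjustment.

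Over all genes, the edgeR quasi-likelihood fit of all 56 libraries called no member in any of the 6 cord comparisons (adjusted p below 0.05 and at least 2-fold). This fit called 0.0372% and 0.0212% of all genes higher in A315T at 9 weeks (against Chat bacTRAP and hTDP43WT) and 0.0212% and 0.0265% at 14 weeks, so hardly any gene of the genome was called. At an unadjusted p below 0.05 it counted 1, 1, 2 and 3 members in these comparisons, where 2.01%, 4.63%, 3.77% and 2.16% of all genes passed, and DESeq2 called 0. The C4b estimates were log2 1.27 ± 0.41 and 1.17 ± 0.41 (SE) at 9 weeks and 1.34 ± 0.45 and 1.76 ± 0.45 at 14 weeks, with edgeR p of 0.00301, 0.00582, 0.00434 and 0.000297 and adjusted p of 1.0, 1.0, 1.0 and 0.336. When cord libraries were fitted alone, C4b was called in all 4 comparisons at about the same folds, log2 1.27, 1.18, 1.34 and 1.75, with SEs of 0.200 to 0.223 and edgeR adjusted p of 0.000617, 0.00179, 0.0018 and 2.31e-05. That fit called 0.176%, 0.171%, 0.105% and 0.22% of all genes higher. The estimate of C4b hardly moved between these fits while its standard error fell. Limma-voom with quality weights on all 56 libraries also called C4b in all 4 (limma adjusted p of 1.8e-12 to 3.51e-05), so the call depends on the fit, and the cause was not tested.

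**Figure D1:**
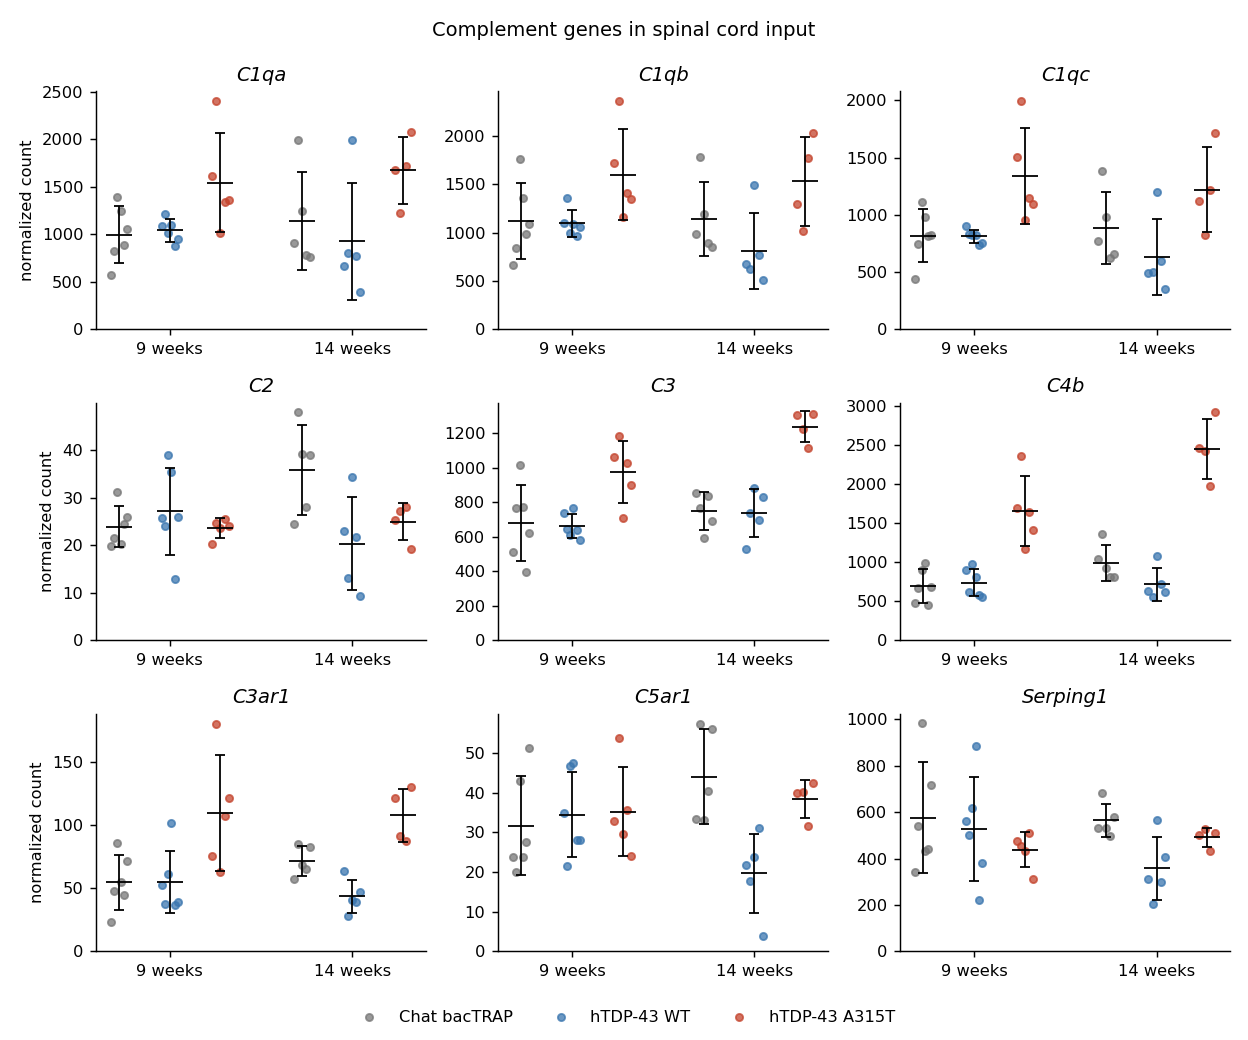
Normalized counts (linear axis from 0) of the 9 complement genes in each of the 31 cord libraries, by genotype and age, 1 point per library, with the mean and SD of each group in black. The A315T libraries of C4b lie between 1173 and 2918, above every control library of the same age, whereas those of C2 and Serping1 overlap the controls.

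C3, the central component of the cascade, was also higher in A315T cord, with smaller folds. At 9 weeks it read 1058.8, 1184.5, 709.6, 1028.6 and 898 normalized counts in A315T, against 393 to 1017.8 (median 695) in Chat bacTRAP and 582 to 764 (median 642) in hTDP43WT. These ranges overlap. At 14 weeks the 4 A315T libraries read 1305.5, 1226.4, 1112.6 and 1308.6, all above the 592 to 853 of Chat bacTRAP and the 530.2 to 885 of hTDP43WT. The folds were 1.43 and 1.47 at 9 weeks (exact permutation p = 0.0455 and 0.00866) and 1.66 and 1.68 at 14 weeks (exact p = 0.00794 each). In edgeR the 14-week differences were log2 0.76 ± 0.38 and 0.74 ± 0.38, with adjusted p of 1.0 in both. C2, the partner of C4 in the convertase, stood apart from C3 and C4b. It read 20.2 to 25.6 normalized counts in A315T at 9 weeks and 19.3 to 27.9 at 14 weeks, within the range of the controls (9.21 to 48.0), and its folds against the controls were 0.991, 0.872, 0.697 and 1.23.

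The C1q chains were higher in A315T on average, with overlap between groups. C1qc read 1502, 1994, 955, 1145.9 and 1095.1 normalized counts in A315T at 9 weeks, all above the 735 to 900.4 of the 6 hTDP43WT libraries (median 821) but not above the 435 to 1112.6 of Chat bacTRAP. Its folds were 1.64 (exact permutation p = 0.0173) and 1.65 (exact p = 0.00216). C1qa read 1610.5, 2400.3, 1009.2, 1343.7 and 1356 in the same A315T libraries (folds 1.55 and 1.49, exact p = 0.0455 and 0.0152), and C1qb 1719, 2367.4, 1166.1, 1411.8 and 1347.7 (folds 1.43 and 1.46, exact p = 0.0844 and 0.0108). A315T replicate 2 was the highest of the 5 for all 3 chains. At 14 weeks the folds against Chat bacTRAP were 1.47, 1.34 and 1.38 for C1qa, C1qb and C1qc (exact p = 0.0952, 0.167 and 0.143), and against hTDP43WT 1.81, 1.88 and 1.94 (exact p = 0.0556, 0.0397 and 0.0397). A single hTDP43WT library, replicate 3 at 14 weeks, read 1991.7 of C1qa and 1497.3 of C1qb, while the other 4 read 391 to 803 and 506 to 764.

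Of the receptors, C3ar1 was higher in A315T and C5ar1 was not in 3 of 4 comparisons. C3ar1, the C3a receptor of myeloid cells, read 75.7, 180.1, 63.1, 107 and 121 normalized counts in A315T at 9 weeks, overlapping Chat bacTRAP (23.1 to 85.9, median 50.9) and hTDP43WT (37.0 to 101, median 45.7). At 14 weeks it read 122, 91.2, 87.4 and 130 in A315T, above all Chat bacTRAP (57.5 to 84.7) and all hTDP43WT libraries (28.0 to 63.3). The folds were 2.01 and 2.00 at 9 weeks (exact permutation p = 0.0238 and 0.0195) and 1.503 and 2.47 at 14 weeks (exact p = 0.0159 and 0.00794). C5ar1, the C5a receptor, read 39.9, 40.1, 31.5 and 42.3 in A315T at 14 weeks, 33.4, 57.2, 33.1, 40.4 and 56.01 in Chat bacTRAP and 21.8, 17.8, 23.7, 30.97 and 3.95 in hTDP43WT. Thus A315T lay above hTDP43WT (fold 1.96, exact p = 0.0159) but not above Chat bacTRAP (fold 0.873, exact p = 0.421), and hTDP43WT lay below Chat bacTRAP without overlap (fold 0.446, exact p = 0.00794). At 9 weeks the C5ar1 folds were 1.11 and 1.02.

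Serping1, the inhibitor, was lower on average in A315T in 3 of 4 comparisons and higher in 1, none with an exact p below 0.05. It read 476, 452.5, 432, 511 and 313 normalized counts at 9 weeks (folds 0.758 against Chat bacTRAP and 0.829 against hTDP43WT, exact permutation p = 0.273 and 0.636). At 14 weeks it read 501, 527, 433 and 508 (folds 0.871 and 1.38, exact p = 0.111 and 0.119). Over the 9 members, A315T lay above the control without overlap for 1 (C4b) and 2 (C1qc and C4b) at 9 weeks against Chat bacTRAP and hTDP43WT, where 1.01% and 2.14% of all genes did. At 14 weeks it did for 3 (C3, C4b and C3ar1) and 4 (C3, C4b, C3ar1 and C5ar1), where 1.28% and 2.97% of all genes did. The median edgeR log2 difference of the members was 0.53, 0.56, 0.50 and 0.91 in these comparisons, against -0.01, -0.04, -0.01 and 0.01 over all genes. The controls themselves differed in places. In hTDP43WT against Chat bacTRAP at 9 weeks, exact p ran from 0.602 for C1qa to 0.981 for C3ar1. At 14 weeks C2, C3ar1 and Serping1 had folds of 0.566, 0.609 and 0.632 (exact permutation p = 0.0397, 0.0159 and 0.0317), and C5ar1 was the only member lower without overlap, as were 0.414% of all genes. In edgeR no member was called at either age, where 0% and 0.00531% of all genes were called higher, and none had an unadjusted p below 0.05 (0.196% and 1.8% of all genes).

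**Figure D2:**
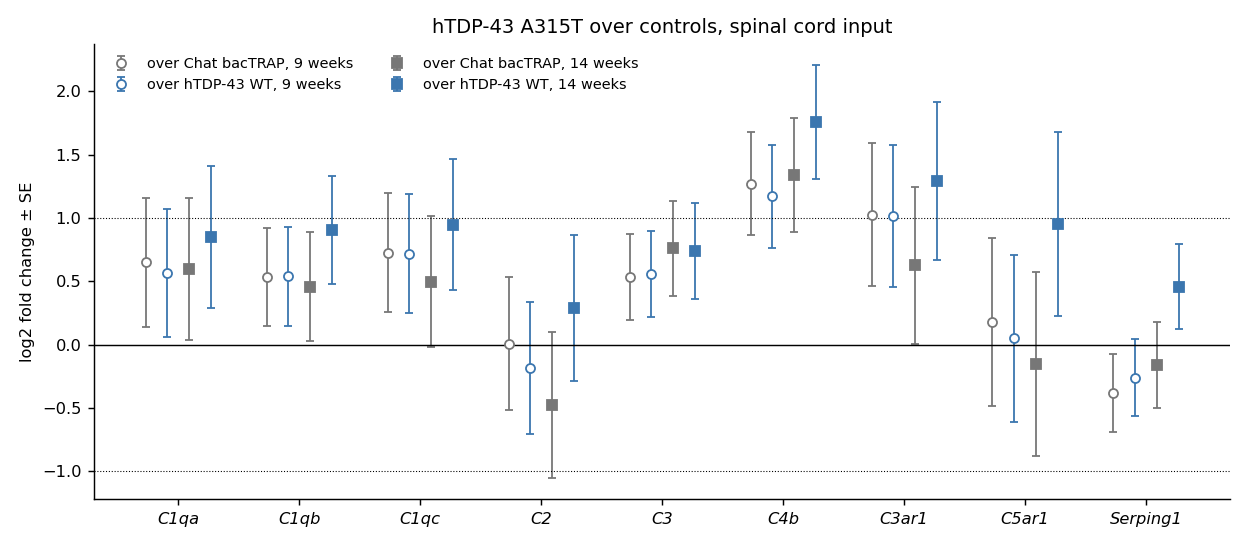
Log2 fold changes between A315T and each control in cord, from the edgeR fit of all libraries (error bars, SE), for the 9 complement genes at both ages. C4b has the largest estimates, 1.17 to 1.76, and C2 and Serping1 lie on both sides of 0.

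Because C1q and C3ar1 are microglial genes, the members were set against cell type markers in the same libraries. The 10 microglial markers (Cx3cr1, P2ry12, Tmem119 and others) averaged 4.02 to 4.27 log2 CPM in the 6 cord groups, and none was called between A315T and a control. Their median log2 differences were -0.02, -0.04, -0.03 and 0.26. The 8 genes of the microglial activation list (Trem2, Tyrobp, Cst7, Axl, Lpl, Cd68, Ctss, Clec7a) averaged 3.82 in A315T at 9 weeks and 3.68 at 14 weeks against 2.57 to 2.96 in the control groups. Cst7, a cysteine protease inhibitor, was called against both controls at 9 weeks and against hTDP43WT at 14 weeks (log2 4.33, 3.78 and 3.28). The 6 reactive astrocyte genes averaged 3.78 and 3.88 in A315T against 2.97 to 3.55 in the control groups, with Serpina3n called in all 4 comparisons (log2 1.30, 1.24, 1.64 and 1.68). Over all libraries, the median of Serpina3n was 3339.9 normalized counts in MN-TRAP against 1656.5 in cord, and that of Lcn2 452.4 against 70.2. Vim, Cd44, Osmr and Gbp2 had lower medians in MN-TRAP. Which cells the Serpina3n RNA came from was not tested. The part of these lists in the complement values was not tested.

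Expressed relative to the mean log2 CPM of the microglial list in the same library, C4b was higher in A315T by 1.32, 1.18, 1.39 and 1.58 on the log2 scale (against Chat bacTRAP and hTDP43WT at 9 weeks, then at 14 weeks). The two-sided exact permutation p was 0.00216 at 9 weeks and 0.00794 at 14 weeks in each. On the same scale C3 was higher by 0.61, 0.56, 0.80 and 0.55, C1qc by 0.76, 0.69, 0.55 and 0.82, and C3ar1 by 1.04, 1.00, 0.64 and 1.09. Of the 36 such tests, unadjusted, 6, 5, 4 and 6 of the 9 members had an exact p below 0.05 in these comparisons, all of them higher, where 4.79%, 9.33%, 6.98% and 5.74% of all genes did in either direction. Leaving out 1 library gave 6, 4 to 6, 3 to 4 and 2 to 6 members, the last with 2 without A315T replicate 1 and 3 without A315T replicate 3 or 4 or hTDP43WT replicate 1, 2 or 5, and smaller groups raise the smallest p an exact test can give. Relative to the microglial and activation lists together, C4b was still higher, by 0.78, 0.70, 1.05 and 1.17 (exact p = 0.00649, 0.00433, 0.0159 and 0.00794), as was C3ar1, while C1q and C3 had no p below 0.05. The activation list is itself higher in A315T, so this scale subtracts more there from every gene. The share of all genes was not computed on it, so a lower value need not mean less RNA of a member. Other members were lower in A315T on that scale. Against Chat bacTRAP, C2 was at -0.50 and -0.74 (9 and 14 weeks, exact p = 0.0368 and 0.00794), Serping1 at -0.82 and -0.46 (exact p = 0.00649 and 0.0159) and C5ar1 at 14 weeks at -0.43 (exact p = 0.0238). Against hTDP43WT at 9 weeks, C5ar1 was at -0.43 (exact p = 0.0216). Of these, C2 and C5ar1 at 9 weeks had been at 0.04 and 0.05 relative to the microglial list alone. At an exact p below 0.05, C4b and C3ar1 were thus higher in all 4 comparisons relative to either set of markers. C3 was higher in all 4 and the C1q chains in some relative to the microglial list alone, and C2, C5ar1 and Serping1 were higher in none.

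**Figure D3:**
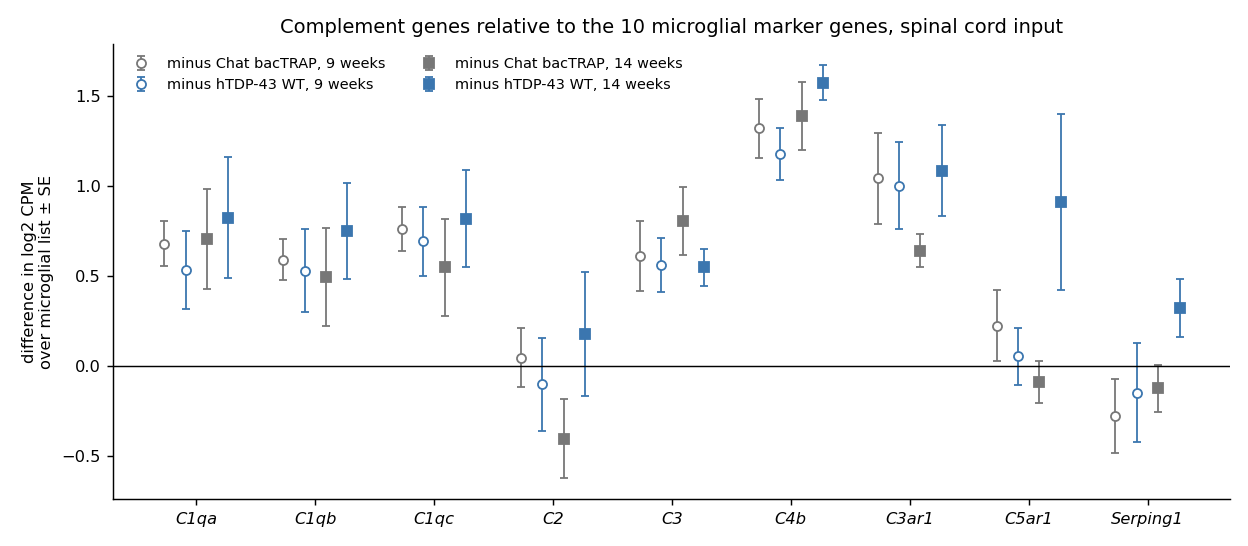
Difference between A315T and each control, at each age, in the log2 CPM of a complement gene over the mean log2 CPM of 10 microglial markers in the same cord library (points, difference of group means; bars, SE from both groups). C4b stands highest, at 1.18 to 1.58, from means over the microglial list of 1.82 and 2.21 in A315T against 0.50 to 0.82 in the controls.

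The second comparison asked which members remained in the motor neuron fraction. In A315T all 9 fell in MN-TRAP relative to cord (edgeR, called lower for 9 of 9, where 24.1% of all genes were), and for every member the highest MN-TRAP library lay below the lowest cord library, as for 22.7% of all genes. C4b ran from 49.2 to 384 normalized counts over 9 MN-TRAP libraries (median 161) and from 1173 to 2918 over 9 cord libraries (median 1979), so that MN-TRAP held 10.1% of the cord mean (log2 -3.19 ± 0.35, edgeR adjusted p = 4.72e-11). C1qa ran from 96.5 to 254 (median 124) against 1009 to 2400.3 (median 1610.5), 9.07% of the cord mean (log2 -3.33 ± 0.44, adjusted p = 9.93e-09 in edgeR). C1qb and C1qc were at 10.3% and 9.73%. C3 was at 17.7% (log2 -2.37 ± 0.29) and C3ar1 at 7.51% (log2 -3.57 ± 0.51). The members least depleted were C5ar1 at 30.9% (log2 -1.59 ± 0.55, edgeR adjusted p = 0.0112), Serping1 at 28.2% and C2 at 26.6%. The median over members was log2 -3.11 against -0.10 over all genes.

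The median depletion of the members was smaller in the controls, although C2 was at log2 -1.85 in Chat bacTRAP against -1.75 in A315T and C3ar1 at -3.86 in hTDP43WT. In Chat bacTRAP, 8 of 9 members were called lower (edgeR, 22.8% of all genes, median log2 -1.66 against -0.21). C5ar1 was the exception (log2 -0.71 ± 0.55, edgeR adjusted p = 0.262), and it was called without MN-TRAP replicate 1 at 14 weeks, its highest library (-3.07, adjusted p = 0.000484 in edgeR). In hTDP43WT, 6 of 9 were called lower (19.8% of all genes, median -1.45 against -0.15). C1qa (log2 -0.83 ± 0.43, adjusted p = 0.0939) and C5ar1 (-1.06 ± 0.63, adjusted p = 0.148) did not pass in edgeR, and C3 passed under 2-fold (-0.85 ± 0.29, adjusted p = 0.0115). The call of C2 (-1.45 ± 0.53, edgeR adjusted p = 0.0184) was lost without hTDP43WT MN-TRAP replicate 2 at 9 weeks (-0.96, adjusted p = 0.153). Serping1 (-1.07 ± 0.26) came under 2-fold without hTDP43WT replicate 3 at 14 weeks of either fraction, MN-TRAP replicate 3 or cord replicate 4 at 9 weeks. C1qa was called without MN-TRAP replicate 3 at 14 weeks or replicate 2 at 9 weeks (-1.46 and -1.31), C5ar1 without MN-TRAP replicate 2 at 14 weeks (-1.51, edgeR adjusted p = 0.036), and C3 without replicate 2 of either age (-1.01 and -1.23). Only C4b and C3ar1 had fractions without overlap in hTDP43WT, and no member did in Chat bacTRAP, where 6.81% and 8.28% of all genes were lower in every MN-TRAP library. The microglial markers moved the same way, with 10, 9 and 10 of 10 called lower in MN-TRAP in A315T, hTDP43WT and Chat bacTRAP (median log2 -3.01, -1.54 and -1.75), as did all 8 oligodendrocyte markers in each genotype.

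**Figure D4:**
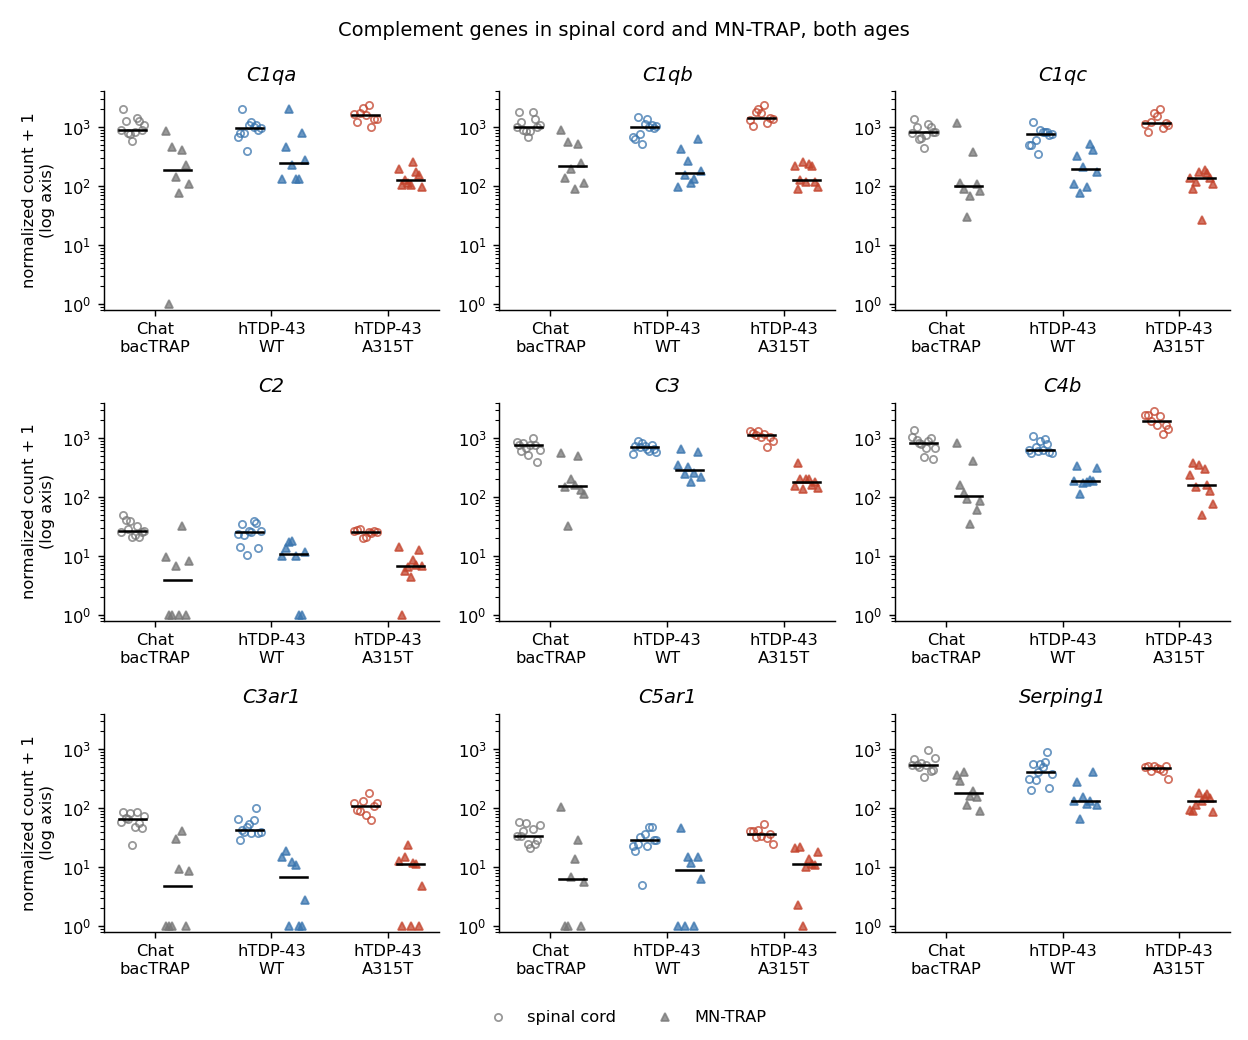
Normalized counts plus 1 (log axis) of each complement gene in cord (open circles) and MN-TRAP (filled triangles) libraries of the 3 genotypes, both ages together, with a line at each median. In A315T the 9 MN-TRAP libraries lie below all 9 cord libraries for every gene, while in Chat bacTRAP the fractions overlap for every gene.

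The difference in depletion was itself tested. Between A315T and hTDP43WT it passed for C1qa (log2 -2.501 ± 0.58, edgeR adjusted p = 0.0277) and C3 (-1.52 ± 0.39, edgeR adjusted p = 0.047), 2 of 9 members where 0.648% of all genes passed in either direction. C4b (-1.57 ± 0.47, edgeR adjusted p = 0.0931) did not pass in this fit. It did in DESeq2 (-1.59, adjusted p = 0.0378) and in edgeR without A315T MN-TRAP replicate 2 at 9 weeks (adjusted p = 0.0453). It also did without the 3 MN-TRAP libraries highest in glial markers, chosen after seeing the data (edgeR adjusted p = 0.00621). The C1qa result was lost without hTDP43WT MN-TRAP replicate 3 at 14 weeks (edgeR adjusted p = 0.0564) or replicate 2 at 9 weeks (0.463), and that of C3 without most single libraries (edgeR adjusted p of 0.0513 to 0.691). Between A315T and Chat bacTRAP no member passed in edgeR (0 of 9, against 0.69% of all genes; 5 with an unadjusted p below 0.05, against 14.7%), and DESeq2 counted 1. Relative to the microglial list, 4, 2 and 2 of the 9 members differed between the fractions in A315T, hTDP43WT and Chat bacTRAP. The rule was an exact p below 0.05 in 27 unadjusted tests, where 91.1%, 66.6% and 77.6% of all genes passed. The list itself fell in MN-TRAP, so this scale raises there any gene that fell less. The shares of all genes follow largely from that and are no yardstick for the members. In A315T the members that differed were Serping1, C2, C5ar1 and C3, higher in MN-TRAP by 1.31, 1.21, 1.18 and 0.63 on the log2 scale (exact permutation p = 4.11e-05, 0.00374, 0.0274 and 0.000123). C2 and C5ar1 were sparse there, with MN-TRAP means of 6.42 and 11.3 normalized counts. With a prior count of 0.5 neither stayed below 0.05 (exact p = 0.0798 and 0.202). C5ar1 was also lost without A315T MN-TRAP replicate 1 or 3 at 14 weeks or replicate 5 at 9 weeks (exact p = 0.0525, 0.0524 and 0.0552). In hTDP43WT C3 was higher by 0.81 and C3ar1 at -1.38 (exact p = 0.000265 and 0.0139), and in Chat bacTRAP Serping1 was higher by 1.27 and C1qb by 0.66 (exact p = 0.0061 and 0.0357). For C4b no difference between the fractions was detected on this scale (-0.35, 0.09 and 0.21, exact p = 0.351, 0.752 and 0.548). Its MN-TRAP SDs were wide, at 0.997, 0.892 and 0.930 in A315T, hTDP43WT and Chat bacTRAP.

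Within MN-TRAP the genotypes differed for few members. At 9 weeks edgeR called none in the 3 comparisons (1, 3 and 1 members with an unadjusted p below 0.05 in A315T against Chat bacTRAP, A315T against hTDP43WT and hTDP43WT against Chat bacTRAP), where 0.536%, 2.04% and 0.0425% of all genes were called lower and 12%, 15.6% and 13.4% had such an unadjusted p, and DESeq2 and limma-voom called none either. At 14 weeks, A315T against Chat bacTRAP, C1qb and Serping1 were called lower, 2 of 9 where 5.17% of all genes were called lower. C1qb read 216, 87.9, 124 and 256 normalized counts in A315T and 886, 134, 548 and 192 in Chat bacTRAP, so the groups overlap (log2 -1.35 ± 0.48, edgeR adjusted p = 0.0492). Serping1 read 91.5, 89.1, 112 and 179 against 370.1, 292, 404 and 111 (log2 -1.25 ± 0.38, edgeR adjusted p = 0.0223), again with overlap. C4b did not differ detectably (-0.10 ± 0.49, edgeR adjusted p = 0.93), but without the 3 MN-TRAP libraries highest in glial markers, chosen after seeing the data, it was called higher in A315T (log2 1.39, edgeR adjusted p = 0.0279). All 3 are control libraries. Among them is Chat bacTRAP replicate 1 at 14 weeks, the highest of its group in C4b (813 normalized counts, the next 158). Of the Chat bacTRAP libraries left at 14 weeks, replicates 2 and 4 had 2.41 M and 4.80 M counts. The calls of C1qb and Serping1 were lost without A315T replicate 1 or 2 or Chat bacTRAP replicate 1 or 3, that of C1qb also without A315T replicate 3. Neither was made when MN-TRAP libraries were fitted alone. In the same comparison 4 of 10 microglial and 7 of 8 oligodendrocyte markers were called lower, and the part of other cells' RNA in these differences was not tested.

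Against hTDP43WT at 14 weeks, C1qa was called lower in A315T (log2 -2.08 ± 0.62, edgeR adjusted p = 0.0298), 1 of 9 where 4.67% of all genes were called lower. It read 193, 103, 124 and 113 normalized counts in A315T and 132, 464, 1999.3, 226 and 128 in hTDP43WT, so 1 library set much of the difference. Without that library, replicate 3, the estimate was log2 -0.80 with an edgeR adjusted p of 0.423. The call was also lost without any 1 of the 4 A315T libraries (log2 -1.96 to -2.35, edgeR adjusted p of 0.0549 to 0.0854). In this comparison 3 of 10 microglial and 8 of 8 oligodendrocyte markers were called lower. Between hTDP43WT and Chat bacTRAP at 14 weeks edgeR called no member, where 3.78% of all genes were called lower, and 3 had an unadjusted p below 0.05, where 36% of all genes did. These were C1qb (log2 -1.09), C1qc (-1.15) and Serping1 (-0.90, edgeR adjusted p = 0.0584).

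The 3 C1q chains form 1 protein, and their RNA kept a nearly fixed ratio in cord. The ratio of C1qa to C1qb was 0.773 to 1.33 over the 31 cord libraries (median 0.972), and the highest of the 3 chains lay 0.176 to 0.733 above the lowest on the log2 scale. In MN-TRAP the ratio ran from 0 to 13.4 (median 0.968) and the chain range from 0.110 to 7.07. In hTDP43WT replicate 3 at 14 weeks, C1qa was at 1999.3 normalized counts (724 reads), C1qb at 149 (54 reads) and C1qc at 74.6 (27 reads). In Chat bacTRAP replicate 2 at 14 weeks, with 2414523 counts in all, C1qa was at 0 reads, C1qb at 11 and C1qc at 9. In hTDP43WT replicate 1 at 9 weeks, the shallowest library, they were at 2, 2 and 8 reads. C1qc was low against the other chains in Chat bacTRAP replicate 3 at 14 weeks (303, 365 and 59 reads of C1qa, C1qb and C1qc), in replicate 4 of that group (24, 33 and 5 reads) and in A315T replicate 1 at 9 weeks (91, 99 and 22 reads). Some of the unequal libraries thus held few reads of the chains and others did not.

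**Figure D5:**
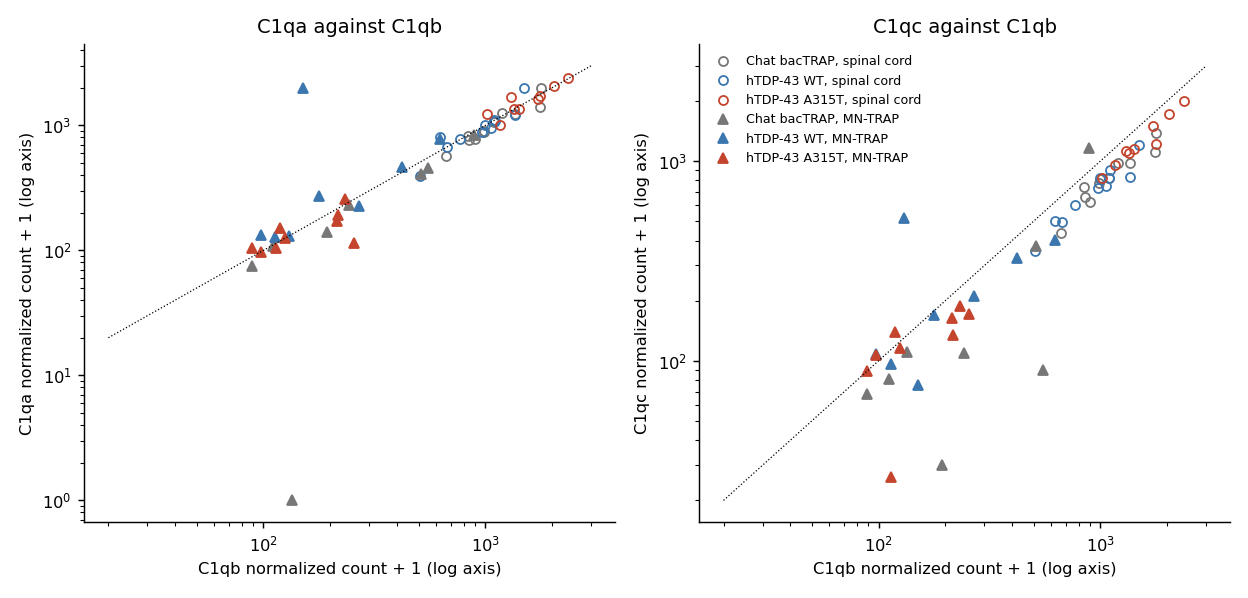
Normalized counts plus 1 (log axes) of C1qa and of C1qc against C1qb, 1 point per library, for cord (open circles) and MN-TRAP (filled triangles), with a dotted line at equal counts. For C1qa, cord libraries stay near the line, with ratios of 0.773 to 1.33, and MN-TRAP libraries scatter up to a ratio of 13.4.

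Across the 31 cord libraries, which share group differences, the log2 CPM of the C1q chains correlated at Pearson r = 0.947 to 0.971, C3 with C4b at 0.861, C4b with C3ar1 at 0.800 and C2 with C3 at -0.06. These are descriptions without a test. Of 14359 genes whose mean reached 1 CPM, those most like the mean of the C1q chains were Trem2 (0.950), Cyba (0.949), Ctsz (0.936), Tyrobp (0.933) and Tgfb1 (0.916). Trem2 and Tyrobp encode a microglial receptor and its adaptor. Those most like C4b were Cd68 (0.901), Gpnmb (0.889), Serpina3n (0.886), Slc11a1 (0.865) and C3 (0.861). Ordered by group mean, neighbouring cord groups were further apart than their spread at 3 steps for C4b, 2 for C3, 1 for C3ar1 and none for the other members.

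Age made no called difference. From 9 to 14 weeks edgeR called 0 members in each genotype and fraction, as did DESeq2 and limma-voom. It called 0% of all genes in cord of each genotype, and in MN-TRAP 0.00531%, 3.89% and 1.1% higher and 0.00531%, 3.14% and 4.05% lower at 14 weeks in A315T, hTDP43WT and Chat bacTRAP. At an unadjusted p below 0.05, edgeR counted no member in cord (0.234%, 1.52% and 0.993% of all genes) and 0, 1 and 2 in MN-TRAP (6.89%, 29.6% and 22.8%). In A315T cord C4b was log2 0.57 ± 0.45 and C3 0.35 ± 0.38 at 14 over 9 weeks, beside 0.50 ± 0.41 and 0.13 ± 0.34 in Chat bacTRAP. The lowest cord estimate was that of C5ar1 in hTDP43WT (-0.76 ± 0.67). The difference between A315T and either control did not change detectably with age for any member in edgeR, where 0% of all genes passed in cord and 0.143% (against hTDP43WT) and 1.72% (against Chat bacTRAP) in MN-TRAP.

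Of 45 other complement genes, 31 were tested. In MN-TRAP over cord, 5, 4 and 5 were called higher in A315T, hTDP43WT and Chat bacTRAP (13.3%, 9.8% and 9.25% of all genes). In the same order 13, 11 and 11 were called lower, beside the shares of all genes called lower that are given with the members above. The medians were log2 -0.58, -0.37 and -0.90. The regulators Cd59a (log2 2.51, 2.15 and 1.96) and Cd55 (2.81, 2.497 and 2.47), which protect cells from complement, and Cfi (3.08, 3.21 and 3.22), the protease that inactivates C3b, rose in MN-TRAP in each genotype. C1ra, a C1 protease, was at 1.12, 1.99 and 1.00, the last not past the test (edgeR adjusted p = 0.062). Itgb2 (-3.53, -2.48 and -1.73), the shared chain of complement receptors 3 and 4, fell, as did Vtn (-2.68, -1.20 and -1.98), Colec12 and Hc. In cord the single call was Itgax, the other chain of complement receptor 4, in A315T against Chat bacTRAP at 9 weeks (log2 3.67 ± 0.72, edgeR adjusted p = 0.013). It read 27.8, 110.4, 22.0, 54.8 and 45.1 normalized counts in A315T at 9 weeks and 44.7, 28.1, 27.3 and 73.3 at 14 weeks, above the 1.43 to 11.4 of all control cord libraries. In MN-TRAP several sparse genes were called between genotypes, among them Cfp and Vtn (log2 -2.29 and -2.5003, A315T against hTDP43WT at 9 weeks). Against Chat bacTRAP at 14 weeks, A315T was called higher for Cr2, Hc, C1rl, C5ar2, C1s1 and Cd59b and lower for Cfd, Fcna, Itgax, Colec12, Itgb2 and Vtn, where 5.24% of all genes were called higher and 5.17% lower. There hTDP43WT was called higher for Cr2, Hc, C5ar2 and Cd59b (9.41% of all genes) and lower for Cfd. Several of these calls rest on few reads. In the 4 Chat bacTRAP libraries Itgax had 20 reads in 1 library and Fcna 10 reads in 1, with 0 in the other 3, and C1s1, C1rl and C5ar2 had reads in 1 library each (6, 1 and 1). Cr2 and Hc were at 0 in all 4 Chat bacTRAP libraries there and Cfd in all 4 A315T libraries, so no fold is given.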

How the data were processed

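RNA-seq of MN-TRAP and of spinal cord input was analysed in 56 libraries. Genotype, age, fraction and replicate number came from the sample titles. The count values deposited by the authors are whole reads per Ensembl gene of GRCm38 (mm10 in the labels), made with STAR and featureCounts at standard parameters, which use no strand. The signal values, also deposited, are these counts over a DESeq2 size factor for each library, and are the normalized counts printed here. The authors left out some sequenced samples before deposit, which could narrow the spread. The members, gene lists and tests were chosen with earlier results of these data known.

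Counts were analysed in R 4.3.3. Genes were filtered with filterByExpr by group (18838 kept), libraries were scaled by TMM, and the 12 groups were fitted jointly over all libraries in edgeR 4.0.16 (glmQLFit, robust, glmQLFTest). Adjusted p are by Benjamini-Hochberg over all genes tested, and a gene was called at an adjusted p below 0.05 and at least 2-fold. Single members in cord were compared by two-sided exact permutation tests of log2(normalized count + 1) over libraries, 54 tests reported without adjustment. Members relative to microglial markers used log2 CPM with a prior count of 2 and two-sided exact permutation tests, 27 between fractions and 36 between genotypes. The adjustment over these member tests alone is not given, since the members were chosen with results known, and the share of all genes with such a p is given instead. Symbols were found for 42462 of 43629 IDs. The joint edgeR fit was tested on simulated counts. The outcome is not given here, so no conclusion is drawn on whether differences as small as those in cord would be called. Libraries were treated as independent. The study kept part of each lysate as input, so fractions may share animals. Whether equal replicate numbers mark shared animals is not known. Over 25 same-numbered MN-TRAP and cord pairs the correlation of deviations ran from -0.365 to 0.443 (median 0.01), with 10 over 0.1. Both fractions of a lysate need not deviate alike, so this check cannot exclude pairing.

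The alternatives were DESeq2 1.42.0, limma 3.58.1 with voom and quality weights, median-ratio factors, no filter, fits of 1 fraction or of 1 fraction and age alone, a replicate block, each library left out, and sets of libraries left out. Precision follows depth: a gene at 0 reads in a library can be present at up to 3 reads, which covers counting error only. Genes named beyond the 9 members are other complement genes with an adjusted p below 0.05 in a genotype comparison, the 4 in each direction with the smallest p between fractions, the 5 most correlated with C1q and with C4b, and Lamr1-ps1 and Ddx3y as library checks. Figures were drawn with matplotlib 3.10.9, and tables with Python 3.11.15, pandas 2.3.3, NumPy 2.4.6 and SciPy 1.17.1.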

Additional observations from a re-analysis of the deposited data

Results flagged for a closer look

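In groups of 4 to 6 libraries, 12 of the 99 member and group combinations tested held 1 library far from the others by Dixon's test, 8 in MN-TRAP and 4 in cord. Chance gives about 1 in 20 for normally distributed values. The members share libraries and some are correlated, so the 12 are not independent. In normalized counts, the cord values were C1qa 1991.7 and C1qb 1497.3 in hTDP43WT replicate 3 at 14 weeks, C1qb 1362.5 in hTDP43WT replicate 2 and C3ar1 101.4 in hTDP43WT replicate 4 at 9 weeks. In MN-TRAP they were C1qa 1999.3 in hTDP43WT replicate 3 at 14 weeks. Chat bacTRAP replicate 1 at 14 weeks stood apart with C1qc 1163, C4b 813 and C5ar1 102, and replicate 4 with C3ar1 29.1. Chat bacTRAP replicate 2 at 9 weeks stood apart with C1qc 373.5, C3 489 and C4b 404. Replicate 1 at 14 weeks and replicate 2 at 9 weeks are also among the 3 MN-TRAP libraries highest in glial markers, and the part of these markers was not tested.

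The depletion of C1qa and C3 from MN-TRAP differed between A315T and hTDP43WT by log2 -2.501 and -1.52 in the edgeR test of the difference itself (adjusted p = 0.0277 and 0.047). Neither passed with the replicate block (adjusted p = 0.242 and 0.270) or with limma-voom (0.377 and 0.217), C1qa was lost without either of 2 single hTDP43WT MN-TRAP libraries, and C3 without most single libraries.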

How the results depend on the processing

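Counts below are of the 9 members, in either direction. The 4 cord comparisons of A315T (against Chat bacTRAP and hTDP43WT at 9 weeks, then at 14 weeks) went from 0 to 2, 1, 1 and 4 with limma-voom, to 1 each with cord libraries alone and to 1, 1, 1 and 2 with cord of 1 age alone; the any-difference test in cord went from 0 to 8, 3 (cord alone) and 1 (DESeq2). In MN-TRAP at 14 weeks, A315T against Chat bacTRAP and hTDP43WT went from 2 and 1 to 0 and 0 with limma-voom, MN-TRAP alone and MN-TRAP of that age alone, and the any-difference test from 3 to 0 with the first 2 of these and to 5 with DESeq2. Without a filter, A315T against Chat bacTRAP gave 1 and the difference in depletion against hTDP43WT 1 in place of 2. DESeq2 gave 1 for hTDP43WT against Chat bacTRAP at 14 weeks and 1 for the difference in depletion against Chat bacTRAP, median-ratio factors 1 for the former, and limma-voom 0 for the difference against hTDP43WT. With the replicate block, A315T against hTDP43WT at 14 weeks in MN-TRAP went from 1 to 0 and the difference in depletion from 2 to 0. Whether the replicate numbers pair the libraries is not known.

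Without the 3 control libraries with Lamr1-ps1 reads, MN-TRAP at 9 weeks gave 3 (A315T against hTDP43WT) and 1 (hTDP43WT against Chat bacTRAP), age in hTDP43WT MN-TRAP 1, the differences in depletion 4 and 2, the change with age of the A315T difference in MN-TRAP 1, the any-difference tests 1 in cord and 6 in MN-TRAP. The call against Chat bacTRAP, that for age and that for the change with age were of C2. The hTDP43WT libraries left at 9 weeks had 0 reads of C2, so no fold is given. Without the library with Y-linked reads, MN-TRAP at 14 weeks gave 5 (A315T) and 4 (hTDP43WT) against Chat bacTRAP, age in Chat bacTRAP MN-TRAP 2, the difference in depletion 3, the change with age of the A315T difference 1, and the any-difference tests 1 and 5. C3ar1 was called higher in both 14-week comparisons, where the Chat bacTRAP libraries left had 0 reads of it, so no fold is given. The other members called there were lower. C3ar1 was also the call for the change with age and 1 of those for age. Without MN-TRAP libraries under 3 M counts the MN-TRAP counts against Chat bacTRAP were 4 and 1 at 14 weeks, with 1 for the difference against Chat bacTRAP and 1 for any difference in cord. Without the 3 MN-TRAP libraries highest in glial markers, chosen after seeing the data, A315T against Chat bacTRAP gave 1 in cord at 9 weeks and 1 in MN-TRAP at 14 weeks, A315T against hTDP43WT 1 at 9 weeks, hTDP43WT against Chat bacTRAP 3 at either age, age in hTDP43WT 1, the difference in depletion against hTDP43WT 4, and the any-difference tests 1 and 6. There C4b in A315T over Chat bacTRAP in MN-TRAP at 14 weeks turned from log2 -0.10 to 1.39 (edgeR adjusted p = 0.0279). The Chat bacTRAP library highest in C4b at that age was among those left out. Relative to microglial markers between fractions, a prior count of 0.5 gave 2 in A315T (C3 and Serping1) in place of 4, with C2 and C5ar1 lost. The microglial and activation lists together gave 1 in Chat bacTRAP in place of 2. Between A315T and hTDP43WT in cord these lists gave 3 at 9 weeks and 2 at 14 weeks in place of 5 and 6, and C2 against Chat bacTRAP and C5ar1 against hTDP43WT at 9 weeks turned to log2 -0.50 and -0.43. The cause of these changes was not tested.

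Leaving out 1 library gave 9 to 9, 5 to 8 and 8 to 9 depleted members in A315T, hTDP43WT and Chat bacTRAP, 0 in every cord genotype comparison, 0 to 2 in MN-TRAP at 9 weeks, 0 to 5, 0 to 1 and 0 to 4 at 14 weeks, 0 to 3 for age, 0 to 4 and 0 to 3 for the differences in depletion, 0 to 1 for their change with age, 0 to 1 and 2 to 6 for any difference in cord and MN-TRAP, and relative to microglial markers 3 to 5, 2 to 3 and 1 to 3 between fractions. Outside these single omissions, 253 of 317 recomputed counts were within 1.5 times the reported one, or 0 where the reported one was 0. Many reported counts were 0, so this share does not measure how stable the other counts are.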
